A study of Homo sapiens with 2 samples.

Results

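The genes described here encode beta-catenin (CTNNB1), the scaffolds and kinase that mark it for destruction (APC, AXIN1, AXIN2 and GSK3B), the 4 TCF/LEF factors it binds on DNA (TCF7, TCF7L1, TCF7L2 and LEF1), and SOX9, a transcription factor of intestinal crypts. They were taken by gene symbol. All 10 were found, each on 1 row, among 52402 symbols, and all 10 were among the 12644 symbols whose mean over the libraries was at least 1 count per 1000000 (CPM). The cells were DLD1, a human colorectal adenocarcinoma line. RNA was sequenced from 1 library labelled wild type, called the control, and from 1 labelled as a HERV-R knockout (HERV-R is an endogenous retrovirus of the human genome); the title of the study names its env gene and the tumour-related traits of the cells. The labels give both groups one protocol, with transfection of vectors for Cas9 and a guide RNA followed by hygromycin selection of colonies. Whether a library came from 1 clone, and what the control received in place of the HERV-R guide, is not stated in the labels.

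In the WNT pathway, a destruction complex built on APC and AXIN holds beta-catenin while GSK3B and casein kinase phosphorylate it, which sends it to the proteasome. WNT ligands switch the complex off, beta-catenin then enters the nucleus, and TCF/LEF factors bound to DNA turn from repression to activation. In the colon this keeps crypt stem cells dividing, and most colorectal cancers carry a broken APC gene. DLD1 is known to carry truncated APC. AXIN2, LEF1, TCF7 and SOX9 are themselves known as genes that this pathway can switch on, and AXIN2 feeds back on it.

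The libraries held 21881122 counts (control) and 16406308 counts (knockout-labelled). With 1 library in each group there was no replicate check and no test. Each ratio below carries an exact 95% interval that covers counting error only, and says nothing of the spread between cultures. ERV3-1, which encodes the HERV-R envelope, had 127 counts (5.80 CPM) in control cells and 125 (7.62 CPM) in knockout-labelled cells, and a count over the gene does not see a small edit. Of 13 colon epithelium markers 10 were compared, 1 higher, 3 lower and 6 between by the 2-fold rule given below. By that rule 6.78% of all compared symbols were higher and 5.69% lower. EPCAM stood at 701 and 750 CPM, while KRT20 and CDX1 had 0 counts in both libraries. The epithelial list was not alike in both. KRT18, KRT19 and KRT8 were 2.85-fold, 2.44-fold and 2.21-fold lower in knockout-labelled cells while CDX2, which sets intestinal identity, stood at 99.4 and 298 CPM, and the part of this in the results below was not tested. Summed over their lists, 8 fibroblast markers had 5.76 and 2.80 CPM, 8 blood and immune markers 2.79 and 1.40 CPM, and 6 endothelial markers 1.19 and 1.46 CPM. COL1A2, COL3A1, DCN, PTPRC, CD3E, CDH5 and KDR had 0 counts in both libraries. Others were detected, with the most counts for PDGFRB (102 in control and 38 in knockout-labelled cells) and CD68 (54 and 15). COL1A1 had 24 and 6 counts, VWF 13 and 7, and CLDN5 12 and 15.

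LEF1, TCF7 and APC stood higher in knockout-labelled cells, AXIN2 was higher by a smaller factor, and SOX9 was lower. CTNNB1 and AXIN1 differed by less than the choice of scaling. A gene was called at least 2-fold higher or lower when its log2 ratio, with 1 CPM added to both libraries, was at least 1 or at most -1. By this rule 3 of the 10 genes were higher, where 6.78% of the 12644 symbols were, and 0 were lower, where 5.69% were. The median log2 ratio of the 10 was 0.05, and that of all compared symbols was 0.12. The 10 were chosen as a pathway, with earlier results of these data known, so these counts describe them and test nothing. With a rule of 1.5-fold, AXIN2 joined the higher genes, 4 of 10 where 20.3% of all compared symbols passed, and SOX9 was the 1 lower gene, where 13.2% passed, a share near 1 of 10. With a rule of 3-fold LEF1 alone was left, where 0.933% of symbols were higher, and 0 of the 10 were lower, where 1.81% were.

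**Figure D1:**
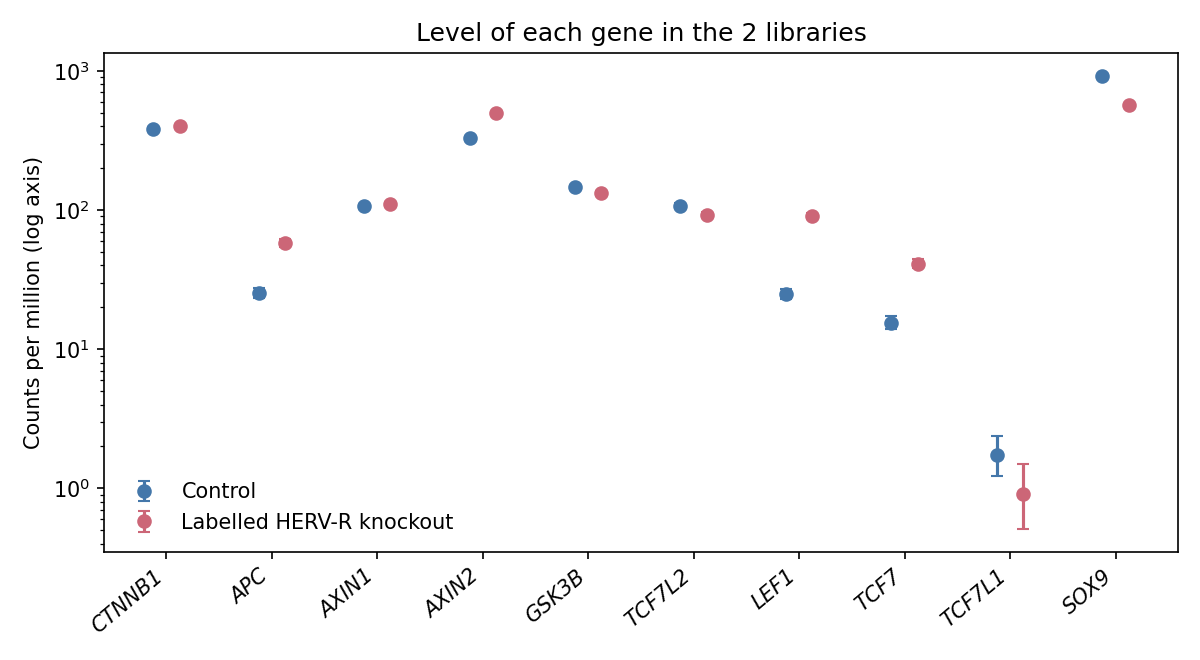
Level of each gene in CPM (log axis) in control cells (blue) and the HERV-R knockout-labelled library (red); bars are exact 95% Poisson intervals, which cover counting error only, and 1 library stands behind each point. The points of LEF1, TCF7 and APC are far apart, those of CTNNB1 (385 and 400 CPM) and AXIN1 (107 and 110 CPM) close together, and TCF7L1 lies lowest with the widest bars.

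Among the TCF/LEF factors, LEF1 differed most. LEF1, which is known from lymphocytes and hair follicles and is low in normal adult colon, lies on the minus strand at chr4:108047545-108168956 (GRCh38). It had 546 counts (24.95 CPM) in control cells and 1492 (90.9 CPM) in knockout-labelled cells. The ratio was 3.64 (3.30 to 4.03). Its log2 ratio with 1 CPM added, 1.82, ranked 59 of the 12644 symbols, and 0.467% of them lay as high or higher. Its antisense neighbour LEF1-AS1 had 16 and 28 counts. The kit marks strand, per the labels' protocols, but strand use in counting is not stated. Reads of this pair could therefore not be told apart with certainty.

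TCF7, which encodes TCF1 and is best known from T cells, lies at chr5:134114711-134151865. It had 340 counts (15.5 CPM) in control cells and 676 (41.2 CPM) in knockout-labelled cells, a ratio of 2.65 (2.32 to 3.03). The log2 ratio of 1.35 ranked 269. SKP1, a ubiquitin ligase subunit whose gene overlaps the end of TCF7 on the other strand, had far more counts (3455 and 2820) at a ratio of 1.09 (1.04 to 1.14). Where counting ignores strand, reads in the shared stretch cannot be given to either gene with certainty. The kit marks strand, but whether counting used it is not stated in the labels.

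TCF7 is known to be read from more than 1 promoter, an inner one giving short proteins that lack the part that binds beta-catenin and act as repressors. A count per gene sums all of them, so the higher TCF7 value does not say which form it was. The bases before the inner of the RefSeq starts of TCF7 are shown because a TCF-type motif stands there, beside those before an inner start of TCF7L2, the other member with a match. Both are 5′ to 3′ on the plus strand, from RefSeq on GRCh38.p14, at chr5:134123368-134123617 and chr10:113126383-113126632, and capitals mark the motif.
TCF7 inner start: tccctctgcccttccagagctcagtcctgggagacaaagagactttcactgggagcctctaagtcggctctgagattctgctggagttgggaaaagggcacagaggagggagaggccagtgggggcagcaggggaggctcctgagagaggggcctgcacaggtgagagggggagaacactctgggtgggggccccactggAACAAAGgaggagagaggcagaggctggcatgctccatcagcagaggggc
TCF7L2 inner start: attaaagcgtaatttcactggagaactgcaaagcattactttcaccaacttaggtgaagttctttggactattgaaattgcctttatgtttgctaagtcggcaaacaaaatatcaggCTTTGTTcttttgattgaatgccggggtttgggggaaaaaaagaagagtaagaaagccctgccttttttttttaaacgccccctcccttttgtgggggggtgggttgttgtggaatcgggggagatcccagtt

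The motifs searched were CTTTGAT and CTTTGTT, on both strands, in the 250 bases before each start. RefSeq windows were at hand for 8 of the 10 genes, 12 windows in all; AXIN2 and SOX9 had none. Of the 12 windows, 2 held a match, where 6.60% of 35116 windows of all genes did. In TCF7 the match was CTTTGTT on the opposite strand, which begins 50 bases before the start. In TCF7L2 the match was CTTTGTT on the same strand, 133 bases before. One of these genes was higher in knockout-labelled cells and the other was not. The LEF1 window, which lies inside the annotated gene, held no match. Whether the motif has a part in these values was not tested. A match is a run of letters and not a shown binding site. The windows of CTNNB1, LEF1 and the outer start of TCF7 overlap annotated untranslated regions and are not printed. They lie inside the annotated genes, so the bases before the annotated 5′ ends of these genes were not searched.

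TCF7L2, which encodes TCF4 and is the main TCF factor of intestinal epithelium, lies at chr10:112950250-113167678. It had 2357 counts (108 CPM) in control cells and 1504 (91.7 CPM) in knockout-labelled cells, a ratio of 0.851 (0.797 to 0.908). The median log2 ratio of the other 452 annotated and compared genes of chromosome 10 was -0.18, the value for TCF7L2 was -0.23, and its 8 neighbours within 1 Mb had a median of -0.02. Whether a difference of the whole chromosome plays a part was not tested. TCF7L1, which encodes TCF3, a factor known mostly as a repressor, lies at chr2:85133410-85310388. It was near the limit of measurement, with 38 counts (1.74 CPM) and 15 counts (0.914 CPM). It was 1.90-fold lower in knockout-labelled cells (1.02 to 3.72), and its log2 ratio ran from -0.19 to -0.86 with the pseudocount.

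The order of the TCF/LEF factors was not the same in the 2 libraries. To set genes against each other, CPM were divided by the length of the merged exons in GENCODE release 29. On this scale TCF7L2 stood at 16.0 CPM per kb in control cells, LEF1 at 4.65, TCF7 at 1.54 and TCF7L1 at 0.393. In knockout-labelled cells LEF1 stood at 17.0 CPM per kb, TCF7L2 at 13.6, TCF7 at 4.09 and TCF7L1 at 0.207. TCF7L2 thus made up 70.8% of the family's summed level in control cells and 39.0% in knockout-labelled cells, and LEF1 20.6% and 48.6%. The sum was 22.6 and 34.9 CPM per kb, 1.54-fold higher. The count of LEF1 over that of TCF7L2 was 0.232 in control cells and 0.992 in knockout-labelled cells, a 4.28-fold difference (3.80 to 4.83) that no scaling of the libraries alters. Lengths from the longest transcript, tried after the data had been seen, gave LEF1 over TCF7L2 as 0.28 and 1.18 per length, against 0.29 and 1.25 from merged exons.

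**Figure D2:**
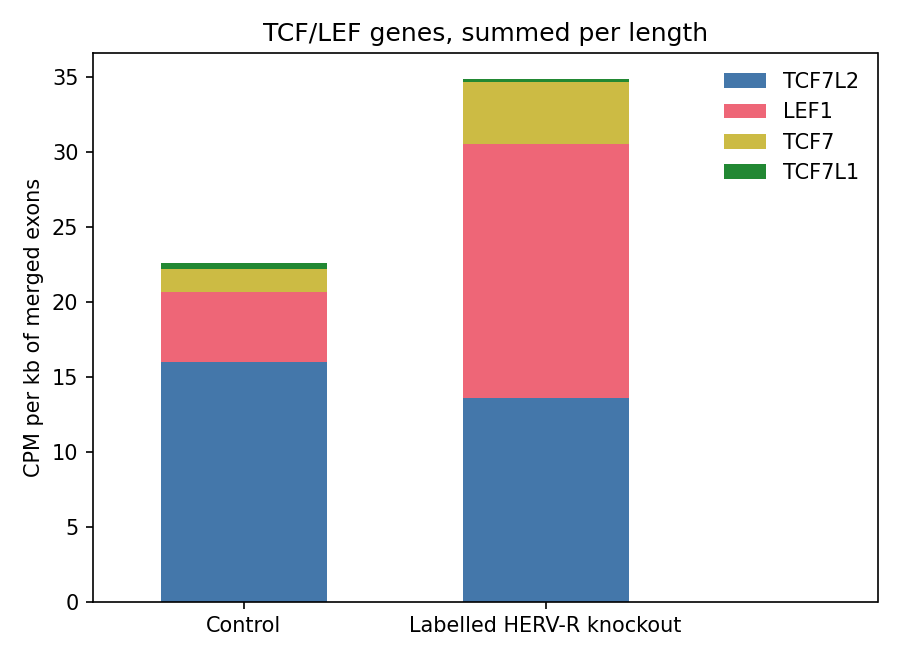
Summed level of the 4 TCF/LEF genes in CPM per kb of merged exons (vertical axis, from 0) in control cells and the HERV-R knockout-labelled library, 1 library each, with no error bar. TCF7L2 fills most of the control bar (16.0 of 22.6), and LEF1 the largest section of the other (17.0 of 34.9).

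Of the destruction complex, APC was the member that passed the 2-fold rule. APC, the large scaffold that is mutated in most colorectal cancers, lies at chr5:112707498-112846239. It had 554 counts (25.3 CPM) in control cells and 948 (57.8 CPM) in knockout-labelled cells, a ratio of 2.28 (2.05 to 2.54). The log2 ratio was 1.16 and 4.002% of compared symbols lay as high or higher. It was the called member nearest to the limit, and its lowest log2 ratio under the alternatives was 1.01, with the median of gene ratios. The counts do not tell truncated from full-length forms. TCF7 and APC could not be told apart in their change: the ratio of TCF7 over that of APC was 1.16 (0.980 to 1.38).

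APC has an outer and an inner promoter, of which the inner is known to be methylated in a share of colorectal tumours. The bases before both starts are printed because gene counts cannot tell which was in use. They are 5′ to 3′ on the plus strand, RefSeq on GRCh38.p14, at chr5:112707248-112707497 and chr5:112737635-112737884. Neither holds CTTTGAT or CTTTGTT, so no capitals stand in them, and their G and C content is 56.4% and 70.0%.
APC outer start: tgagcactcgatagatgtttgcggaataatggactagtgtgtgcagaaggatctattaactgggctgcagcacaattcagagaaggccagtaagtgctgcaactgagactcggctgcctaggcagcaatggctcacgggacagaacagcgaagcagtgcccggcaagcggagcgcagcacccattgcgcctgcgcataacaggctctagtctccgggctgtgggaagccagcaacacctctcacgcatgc
APC inner start: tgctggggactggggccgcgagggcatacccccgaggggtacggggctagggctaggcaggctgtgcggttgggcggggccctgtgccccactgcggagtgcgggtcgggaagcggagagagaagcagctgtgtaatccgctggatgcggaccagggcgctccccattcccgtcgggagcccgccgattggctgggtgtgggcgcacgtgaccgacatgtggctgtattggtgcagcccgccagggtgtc

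The AXIN genes encode interchangeable scaffolds, AXIN1 made steadily and AXIN2 induced by the pathway. AXIN2 lies on the minus strand at chr17:65528563-65561647 and had 7204 counts (329 CPM) in control cells and 8175 (498 CPM) in knockout-labelled cells. The ratio was 1.51 (1.47 to 1.56), with a log2 ratio of 0.60 that fell to 0.44 with the median of gene ratios. As 19.8% of compared symbols were as high or higher, AXIN2 was well inside the bulk of genes. AXIN1, on the minus strand at chr16:287440-352673, had 2331 counts (107 CPM) and 1800 (110 CPM), a ratio of 1.03 (0.968 to 1.10). The count of AXIN2 over AXIN1 was 3.09 in control cells and 4.54 in knockout-labelled cells, a relative difference of 1.47 (1.37 to 1.58).

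GSK3B, the kinase of the complex, lies on the minus strand at chr3:119821323-120094417. It had 3181 counts (145 CPM) and 2173 (132 CPM), a ratio of 0.911 (0.862 to 0.962). CTNNB1 lies at chr3:41194741-41260096 and had 8419 counts (385 CPM) in control cells and 6557 (400 CPM) in knockout-labelled cells. Its ratio was 1.04 (1.01 to 1.07). With TMM scaling the log2 ratio of CTNNB1 was -0.07 and that of AXIN1 -0.08, so neither has a direction that holds under all scalings. Beta-catenin is known to be controlled as a protein, and the RNA level here does not measure it.

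Set against CTNNB1 itself, which removes the scaling, LEF1 was 3.51-fold higher (3.16 to 3.90), TCF7 2.55-fold (2.23 to 2.93), APC 2.20-fold (1.97 to 2.46) and AXIN2 1.46-fold (1.39 to 1.52). AXIN1 did not differ from CTNNB1 beyond counting error (0.991; 0.924 to 1.06). GSK3B was lower relative to CTNNB1 (0.877; 0.823 to 0.935), as was TCF7L2 (0.819; 0.762 to 0.881). SOX9 was lower still (0.598, interval 0.574 to 0.623), and so was TCF7L1, on few counts (0.507, interval 0.259 to 0.944). LEF1 was also higher relative to TCF7 (1.37; 1.16 to 1.62) and to AXIN2 (2.41; 2.17 to 2.67).

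**Figure D3:**
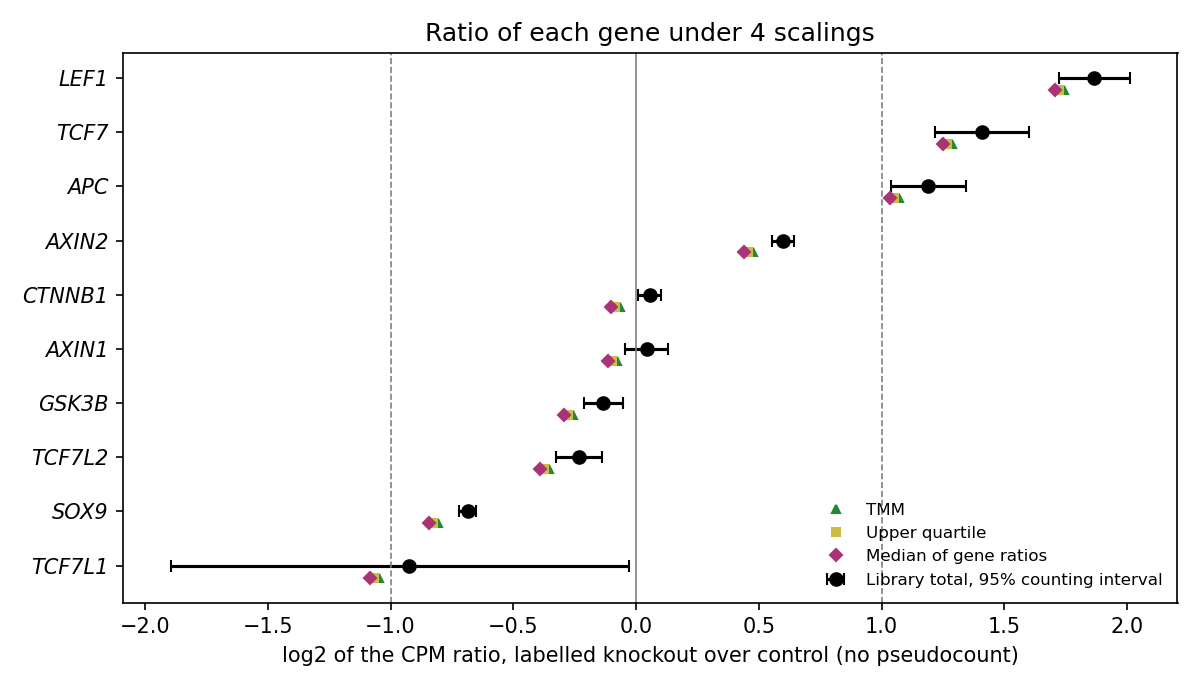
log2 of the CPM ratio, labelled knockout over control and with no pseudocount, for each gene (rows): black points and bars are the ratio by library total and its exact 95% counting interval, coloured marks the ratio under 3 other scalings, and dashed lines stand at 2-fold. LEF1, TCF7 and APC lie beyond the upper dashed line under all 4 scalings, while CTNNB1 and AXIN1 change side of 0.

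SOX9 lay on the other side of 0 from AXIN2, LEF1 and TCF7, the other members known as WNT-responsive genes. SOX9, which marks crypt base and Paneth cells, lies at chr17:72121020-72126420. It had the highest count of the 10 in both libraries, with 19934 counts (911 CPM) in control cells and 9289 (566 CPM) in knockout-labelled cells. It was 1.61-fold lower (1.57 to 1.65) and missed the 2-fold rule, with a log2 ratio of -0.69 that 10.6% of compared symbols matched or went below. The log2 ratio was -0.84 with the median of gene ratios. Relative to SOX9, AXIN2 was 2.44-fold higher (2.34 to 2.54). SOX9-AS1, on the opposite strand, had 23 and 12 counts.

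Per length, SOX9 stood at 232 CPM per kb in control cells and 144 in knockout-labelled cells, above the other 9 genes in both. AXIN2 followed at 63.0 and 95.3, and CTNNB1 at 32.3 and 33.5. The place of CTNNB1 depends on the length used, since its merged exons (11927 bases) are far longer than its longest transcript (4888 bases). With the latter it stood at 78.7 and 81.8, level with AXIN2 in control cells (77.3) and below it in knockout-labelled cells (117). GSK3B (17.8 and 16.2), TCF7L2 (16.0 and 13.6) and AXIN1 (14.2 and 14.7) lay close together, and TCF7L2 passed GSK3B when the longest transcript was used. APC stood at 2.04 and 4.64 and TCF7 at 1.54 and 4.09, an order that also turned with the length.

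**Figure D4:**
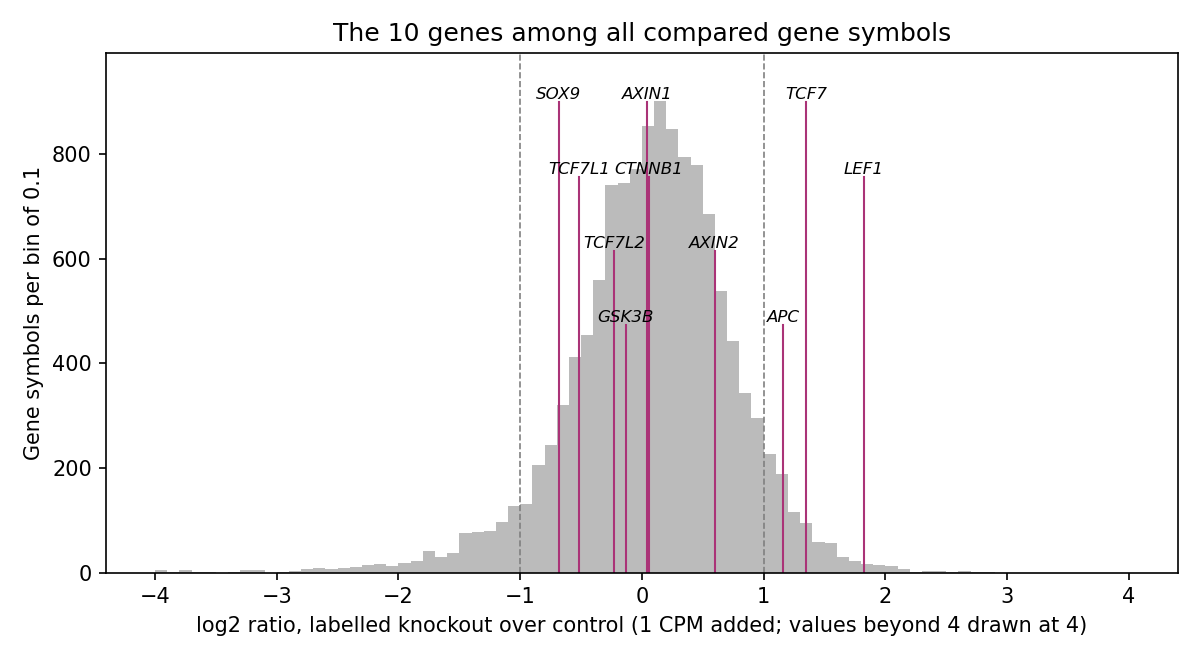
Distribution of the log2 ratio (1 CPM added) over all 12644 compared gene symbols, in bins of 0.1, with each of the 10 genes marked by a line whose height carries no value. LEF1 (1.82), TCF7 (1.35) and APC (1.16) lie in the upper tail, and the other 7 between the dashed 2-fold lines.

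The position of the called genes was looked at next. Within 1 Mb of LEF1, 7 other genes were compared and 0 were at least 2-fold higher; their median log2 ratio was -0.42 and the highest was 0.64, for LEF1-AS1. Near TCF7 the numbers were 17 genes and 0 higher (median 0.12), and near APC 7 genes and 0 higher (median 0.03). Of these neighbours, 1 was at least 2-fold lower, a gene near APC with a log2 ratio of -1.30. Over all compared symbols 6.78% were higher and 5.69% lower. At those shares few or none would be called among so few genes, so these counts only describe the regions. APC and TCF7 are both on chromosome 5, whose other 522 genes had a median of 0.15. Transcript length and base composition were set beside the ratio. Over 10 bins of 11817 annotated genes, the median log2 ratio ran from 0.09 to 0.17 by merged exon length and from 0.08 to 0.14 by G and C content.

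Other parts of the pathway were read with the same rule from lists by role. Of all 12644 compared symbols, 6.78% were higher and 5.69% lower, with a median log2 ratio of 0.12. The counts below describe the lists and test nothing. Of 23 compared partners of the destruction complex and degradation machinery, 1 was higher, 0 lower and 22 between (median log2 ratio 0.12), near the values of all symbols. The higher one was AMER1, a membrane anchor that binds APC, with 208 counts (9.51 CPM) in control cells and 471 (28.7 CPM) in knockout-labelled cells (3.02-fold; 2.56 to 3.57). Of 21 coactivators of beta-catenin, 2 were higher, 1 lower and 18 between (median 0.46). The lower one was BCL9L, which links beta-catenin to PYGO proteins (454 against 197 CPM; 2.30-fold lower; 2.21 to 2.40). The acetyltransferase EP300 (2.08-fold) and the helicase RUVBL1 (2.16-fold) were higher by library totals, and with each other scaling 0 coactivators passed upward.

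Of 16 compared TCF corepressors and nuclear inhibitors, 2 were higher, 1 lower and 13 between (median -0.15). Over all compared symbols, 6.78% were higher and 5.69% lower (median 0.12). The deacetylase HDAC1 had 69.7 and 177 CPM (2.54-fold higher; 2.39 to 2.71). TLE4, a Groucho protein that binds TCF factors when beta-catenin is absent, had 43.9 and 95.7 CPM (2.18-fold; 2.01 to 2.37), and it was not called with the other scalings, where 1 member was higher. HBP1, the lower one, had 46 and 8 counts, and it was not called with a pseudocount of 5 CPM and not compared with a minimum mean of 5 CPM, where 0 were lower.

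Of 20 compared WNT/beta-catenin targets other than the 10 genes, 6 were higher, 0 lower and 14 between. Among all compared symbols 6.78% were higher and 5.69% lower. The median log2 ratio of the 20 was 0.76, against 0.12 for all compared symbols. ASCL2, a stem cell factor, had 33.8 CPM in control cells and 187 CPM in knockout-labelled cells, and the cotransporter SLC12A2 288 and 1108 CPM. SP5, a feedback repressor at WNT targets, was 3.36-fold higher (2.52 to 4.53; 67 against 169 counts), and TNFRSF19 2.57-fold (2.25 to 2.93). The log2 ratio was above 0 for 15 of the 20 and below 0 for 5, none of which passed the rule. The 5, named after their values were seen, were NOTUM (-0.98), PPARD (-0.76), CCND1 (-0.57), RNF43 (-0.54) and BMP4 (-0.08). NOTUM rests on 37 and 6 counts, and without the added 1 CPM it was 4.62-fold lower (1.93 to 13.4). Over the alternatives, size rules aside, 4 to 7 targets were higher and 0 to 1 lower. This list shares LGR5, NKD1, RNF43 and ZNRF3 with the receptor list and NOTUM, APCDD1 and DKK1 with the inhibitor list.

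Upstream of the complex, values went both ways. The shares to set beside the counts were again 6.78% of all compared symbols higher and 5.69% lower (median 0.12). Of 22 receptors and membrane-proximal genes, 2 were higher, 3 lower and 17 between (median -0.02). The pseudokinase PTK7 was 3.44-fold lower (105 against 30.7 CPM; 3.12 to 3.79), LGR6 had 96 and 16 counts, and the receptor FZD2 was 2.78-fold lower (14.2 against 5.12 CPM). With a pseudocount of 5 CPM, 1 receptor gene was lower and 1 higher, and LGR6, FZD2 and FZD1 lost their calls. LGR5 and FZD1 were the higher ones (2.23-fold and 2.27-fold; FZD1 was named after its value was seen), and with the median of gene ratios 0 were higher and 5 lower, as with the upper quartile. Of 25 genes for ligands, R-spondins and secretion, 10 were compared, 1 was higher, 4 lower and 5 between (median -0.28). WNT7B, a ligand of epithelial cells, had 289 counts (13.2 CPM) in control cells and 23 (1.40 CPM) in knockout-labelled ones, 9.42-fold lower (6.16 to 15.1). WNT4 (71 and 9 counts) and the ligand-acylating enzyme PORCN (428 and 141 counts) were lower, and WNT16 (49 and 119 counts) was higher. With a pseudocount of 5 CPM WNT7B alone stayed called. With a minimum mean of 5 CPM, 2 of this list were lower and 0 higher. WNT4 (3.24 and 0.549 CPM) reached a mean of 1 CPM only through the control, which favours a lower call. The same holds for the other lower gene, WNT5A (57 and 13 counts; 2.60 and 0.792 CPM), named after its values were seen.

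**Figure D5:**
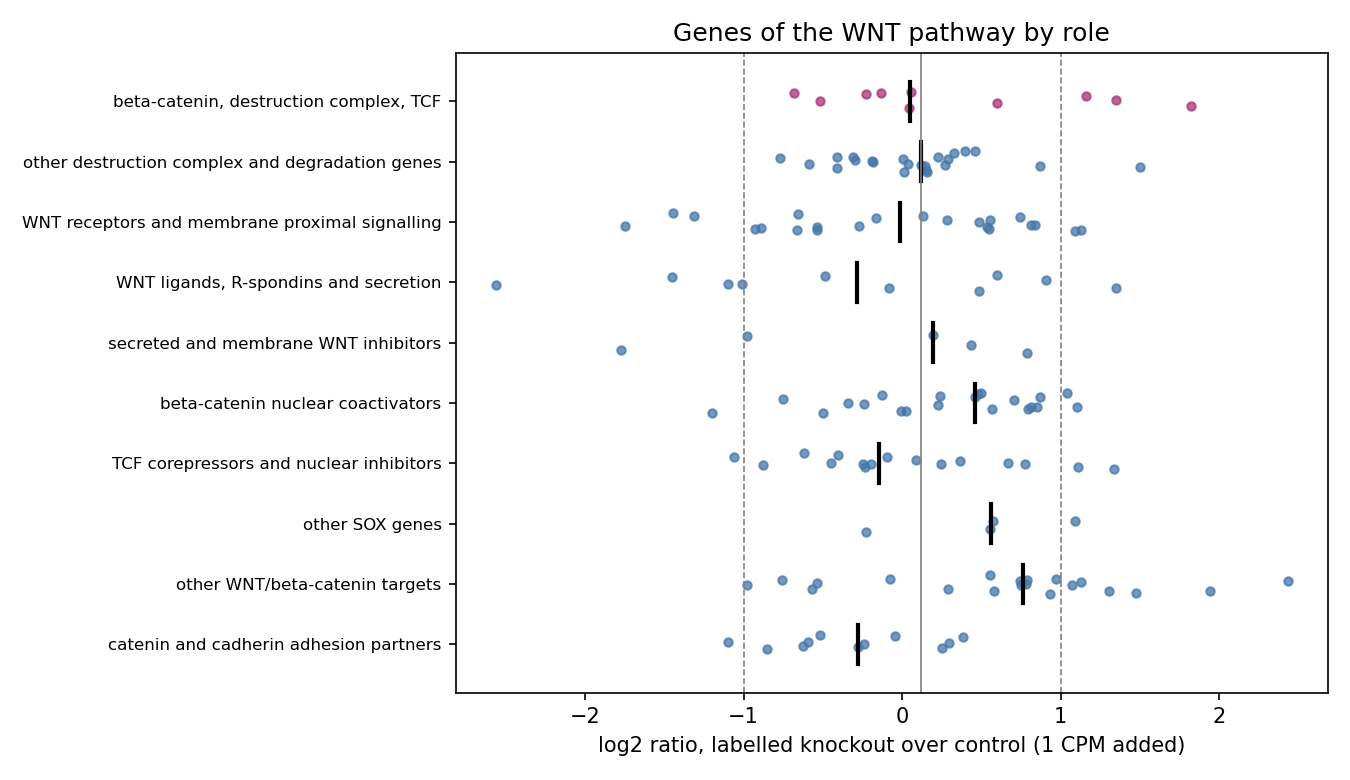
log2 ratio (1 CPM added) of each compared gene in the pathway lists (rows), with the median of each list as a black bar, the median of all compared symbols as a grey line and dashed lines at 2-fold; vertical scatter within a row carries no value. The targets have the highest median (0.76), and the 10 genes described here (top row) run from -0.69 to 1.82.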

How the data were processed

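RNA sequencing was done on 2 libraries of DLD1 cells, grouped by the genotype label. The authors deposited 1 table of raw counts per library, whole numbers with no normalization, on 58173 rows. Per the submitters' processing notes, TopHat and GRCh38 were used. The aligner version, counting program, annotation, strand use and filters are not stated there or in the labels; the kit marks strand, per the labels' protocols.

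Rows of 1 symbol were summed and scaled by the library total to CPM. Symbols with a mean of at least 1 CPM were compared by the log2 ratio with 1 CPM added. Folds of single genes are CPM ratios without a pseudocount, with exact 95% Clopper-Pearson intervals on the summed count; ratios between 2 genes have the exact conditional interval of the odds ratio (scipy 1.17.1), over 17 pairs. Any PCR duplicates left in the counts would make these intervals too narrow. A count of 0 was taken to allow 3 counts (0.137 CPM for the control, 0.183 CPM for the other library). No p-value was computed. Steps were tested on simulated data that held counting error only, with no spread between cultures and no PCR duplicates, so that test does not cover these.

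Positions and lengths come from GENCODE release 29 (GRCh38), promoters from RefSeq (GRCh38.p14). The 10 genes and the lists were chosen with earlier results of these data known. Of each other list the text names up to 4 called genes furthest from 0, with exceptions marked. Alternatives were a minimum mean of 5 CPM or no filter, pseudocounts of 0.1 and 5 CPM, 1.5-fold and 3-fold rules, and TMM or upper-quartile scaling (edgeR 4.0.16) or size factors by the median of gene ratios (DESeq2 1.42.0).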

Additional observations from a re-analysis of the deposited data

How the results depend on the processing

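The number of genes at least 2-fold higher among the 10 was 3 under both other pseudocounts, both other filters and the 3 other scalings. The lowest log2 ratios were 1.67 for LEF1, 1.17 for TCF7 and 1.01 for APC, and 0 of the 10 were lower in these settings. The share of all compared symbols moved with the setting, from 3.37% to 8.89% higher and from 2.93% to 7.47% lower. With the 3-fold rule 1 was higher (0.933% of all compared symbols), and with the 1.5-fold rule 4 were higher (20.3%) and 1 was lower (13.2%). The median log2 ratio of the 10 was -0.0725 with TMM, -0.0926 with the upper quartile and -0.109 with the median of gene ratios. Before 1 CPM is added, these scalings shift the log2 ratio of every gene by -0.12, -0.14 and -0.16. With it added, genes of low level shift less, as TCF7L1 did (-0.52 by library totals, -0.58 with TMM). The median of all compared symbols was 0.00441, -0.0146 and -0.0301 with the 3 scalings. TCF7L1 was not compared with a minimum mean of 5 CPM. The log2 ratio of ERV3-1 ran from 0.20 to 0.39. Ratios between 2 genes have no scaling alternative. No paired analysis was possible because each group has 1 library, and for the same reason no library could be left out. Depth limits TCF7L1, LGR6, HBP1, WNT4, WNT5A, NOTUM and SOX7, which rest on few counts. Each was below 1 CPM in 1 library and passed the minimum mean only through the other, which favours a large ratio.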

Other observations

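Beta-catenin also sits at cell junctions, where it ties cadherins to the actin cytoskeleton through alpha-catenin. Of 11 compared genes of this adhesion list, 0 were at least 2-fold higher, 1 was lower and 10 lay between, with a median log2 ratio of -0.28. All compared symbols had 6.78% higher, 5.69% lower and a median of 0.12. The lower one was vinculin (VCL), which links catenins to actin, with 532 CPM in control cells and 248 CPM in knockout-labelled cells (2.15-fold lower; 2.07 to 2.22). E-cadherin (CDH1), named after its values were seen, had 854 and 704 CPM. With the median of gene ratios 2 members were lower.

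Of 19 other SOX genes 4 were compared, and 1 was higher, SOX7, with 9 and 33 counts (4.89-fold; 2.29 to 11.6); it was not called with a pseudocount of 5 CPM. Of 17 secreted and membrane WNT inhibitors 5 were compared and 1 was lower, KREMEN1, a receptor for DKK proteins, with 111 and 31.8 CPM (3.50-fold lower; 3.18 to 3.85). With each other scaling 2 were lower. By library totals, 6.78% of all compared symbols were higher and 5.69% lower.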
